A study of Mus musculus with 102 samples.

Results

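Mouse embryonic stem cells with and without TET proteins were compared 29 days after Cre was given to delete the de novo DNA methyltransferase genes. The comparison used the 3 Cre-treated replicates of the wild-type TET line (WT) and the 3 of the TET triple knockout line (TTKO) taken at day 29, 6 of the 102 samples of the series. The study followed the methylation level of single CpGs by bisulfite sequencing of PCR amplicons, or by hybrid capture, over a time course after Cre. Both lines derive from C57BL6/J embryonic stem cells whose Dnmt3a and Dnmt3b genes carry loxP sites on both alleles. Cre recombinase was given as a protein, and the labels call both lines Dnmt3a/3b catalytic dead after Cre. Per the study's methods the excision was incomplete, so that some functional alleles remained, and their share in these 6 samples was not analysed here. The WT samples are thus labelled as lacking de novo methyltransferase activity as well and are wild type for Tet1, Tet2 and Tet3. TTKO was made from that parental line by CRISPR and is a single clone, so the loss of TET proteins and other properties of the clone cannot be told apart. Non-transduced samples of day 0 and samples mock-treated with buffer and taken at day 29, 3 for each line, served as the background. Of the 405 CpGs in 65 amplicons, 392 CpGs in 63 amplicons had a level in all 6 samples and are described here. The other 13 were dropped because 1 replicate had no level at an Acot7 intron (TTKO replicate 1) and at a Cradd intron (WT replicate 2). A methylation table holds no cell type markers, and neither the Tet alleles nor the share of recombined cells can be read from it, so the labels were not checked against the data.

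DNMT3A and DNMT3B add methyl groups to unmethylated CpGs, while DNMT1 copies the mark onto the new strand after replication. TET enzymes oxidise 5-methylcytosine to 5-hydroxymethylcytosine and further products, which are diluted at replication or excised. Bisulfite sequencing reads 5-methylcytosine and 5-hydroxymethylcytosine alike. In embryonic stem cells, CpG islands at promoters are unmethylated regions (UMRs), distal regulatory elements bound by transcription factors such as CTCF and REST are lowly methylated regions (LMRs), and most of the genome is fully methylated (FMRs). The region list also holds LMRs seen in ES cells only (ES-specific), LMRs seen in neuronal progenitors only (NP-specific) and a few methylated islands. Cells without DNMT3A and DNMT3B still have DNMT1.

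The stretches that carry the main results are given as the upper strand of the mouse mm9 reference, 5′ to 3′, with each measured CpG in capitals. The coding exon of Zbtb20 is shown because all its CpGs differed, Slx1b because it holds most CpGs that were lower in TTKO, and the Akap6 intron and the first of the REST regions because they hold the widest differences. The stretch nearest Col1a1 and the REST region nearest Ajap1 are shown because neighbouring CpGs behaved differently. In the Ajap1 stretch the capitals also mark 1 match to part of the REST recognition sequence (CACC, any 2 bases, then GGACAG) on the lower strand.
Zbtb20 coding exon, chr16:43609648-43609841: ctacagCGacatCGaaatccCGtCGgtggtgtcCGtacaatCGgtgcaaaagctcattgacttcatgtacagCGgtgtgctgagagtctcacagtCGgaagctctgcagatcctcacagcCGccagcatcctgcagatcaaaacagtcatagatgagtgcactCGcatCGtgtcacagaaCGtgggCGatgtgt
Akap6 intron, chr12:54133768-54133845: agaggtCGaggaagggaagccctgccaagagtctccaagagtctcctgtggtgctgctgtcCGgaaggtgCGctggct
Upstream of Col1a1, chr11:94734342-94734441: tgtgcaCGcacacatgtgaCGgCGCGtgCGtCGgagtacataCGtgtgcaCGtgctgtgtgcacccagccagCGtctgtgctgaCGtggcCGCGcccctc
REST region nearest 4930588N13Rik, chr5:150291203-150291273: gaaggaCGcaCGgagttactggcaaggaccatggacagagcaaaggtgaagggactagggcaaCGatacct
REST region nearest Ajap1, chr4:153053406-153053603: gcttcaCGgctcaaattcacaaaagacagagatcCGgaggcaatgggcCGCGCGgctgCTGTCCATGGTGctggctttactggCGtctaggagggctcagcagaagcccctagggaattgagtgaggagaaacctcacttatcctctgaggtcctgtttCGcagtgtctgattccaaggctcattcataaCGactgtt
REST region nearest 4931423N10Rik, chr2:23146868-23146945: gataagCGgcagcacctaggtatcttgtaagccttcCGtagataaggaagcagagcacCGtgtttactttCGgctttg
Slx1b, chr7:133835970-133836194: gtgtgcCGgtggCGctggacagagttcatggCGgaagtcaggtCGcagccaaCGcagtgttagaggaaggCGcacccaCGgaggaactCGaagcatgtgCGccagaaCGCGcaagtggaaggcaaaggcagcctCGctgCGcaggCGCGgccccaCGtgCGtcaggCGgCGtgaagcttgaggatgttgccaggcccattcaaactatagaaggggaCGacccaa

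At day 29 after Cre, TTKO cells held more methylation than WT cells. The mean level over the 392 CpGs was 14.5, 14.7 and 14.8% in the 3 WT replicates and 24.6, 24.5 and 24.2% in the 3 TTKO replicates, so that the groups did not overlap. The difference was 9.75 percentage points (14.6% ± 0.142 against 24.4% ± 0.201, SD, n = 3 each). A two-sided exact permutation test gave p = 0.1, which is the smallest p that 3 samples against 3 allow. Of the 392 CpGs, 131 (33.4%) were higher in TTKO and 21 (5.36%) were lower by a quasi-binomial test of methylated and unmethylated reads with Benjamini-Hochberg adjusted p under 0.05. The 131 higher CpGs lay in 33 amplicons, had a median level of 52.0% in TTKO against 7.27% in WT, and a median difference of 27.1 points. In 115 of them the difference was at least 10 points and in 59 at least 30 points. The 21 lower CpGs lay in 10 amplicons with a median difference of -5.72 points. Among whole amplicons, 25 of 63 (39.7%) were higher in TTKO and 6 (9.52%) lower. CpGs of an amplicon are read on the same molecules, so they are not independent of each other.

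**Figure D1:**
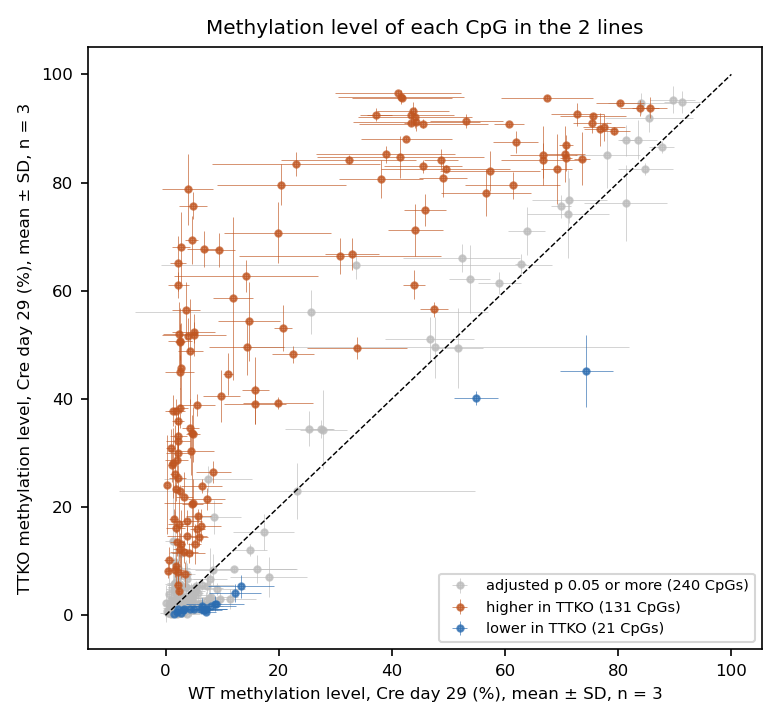
Each point is 1 of the 392 CpGs, with its mean methylation level in WT on the horizontal axis and in TTKO on the vertical axis, both in percent at Cre day 29, with SD bars over 3 replicates and a dashed line of equality. The 131 CpGs higher in TTKO reach up to 96.6% in TTKO and many lie near 0 on the WT axis, while the 21 lower CpGs sit close to the origin apart from 2 at 54.8 and 74.4% in WT.

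Bisulfite depth was high and unequal. Reads summed over CpGs ranged from 2513300 to 2739742 in the TTKO replicates and from 3915943 to 4671203 in the WT replicates, with median coverage of 4095 to 4239 and 5257 to 6289 reads per CpG. The WT replicates spread more than the TTKO replicates. Among CpGs at 10 to 90%, the median SD was 5.42 points in WT (98 CpGs) and 3.25 points in TTKO (135 CpGs), whereas the same value was 2.84 points in WT at day 0 and 3.10 points in mock-treated WT at day 29. No molecular identifiers were used, so read counts cover counting error only, and the study's methods call the replicates biological without saying how they were kept apart. In hybrid capture of TTKO at Cre day 29, the authors' pooled level at 253 of these CpGs differed from the amplicon mean by a median of 1.08 points, and the amplicon level was higher by 1.75 points on average. At the 5 of the 10 CpGs with the widest differences that capture covered, its TTKO level was below the amplicon mean, from 74.9% against 78.7% at chr12:54133829 to 50.9% against 67.5% at chr3:65259461.

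The 2 lines were distributed differently over the range of levels. At 80% or more there were 50 CpGs in TTKO and 12 in WT, and under 5% there were 201 in TTKO and 252 in WT.

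Region classes differed in how much separated the lines. Constitutive LMRs, lowly methylated in several cell types, had a mean level of 26.1% ± 1.08 in TTKO and 5.16% ± 0.642 in WT (53 CpGs in 12 amplicons). Of their CpGs, 31 (58.5%) were called higher in TTKO and none was called lower, beside 33.4% and 5.36% over all CpGs. The median difference was 14.3 points beside 0.317 points over all CpGs tested. The WT level was 19.7% of the TTKO level in this class, the lowest ratio among the 9 classes. NP-specific LMRs, which are methylated in ES cells, had 73.9% ± 0.356 in TTKO and 51.2% ± 2.86 in WT, and 28 of their 39 CpGs (71.8%) were higher in TTKO with a median difference of 19.8 points and 1 was lower. ES-specific LMRs had 27.5% ± 0.433 and 12.7% ± 1.44. This class was split, since 30 of its 64 CpGs (46.9%) were higher in TTKO and 11 (17.2%) lower, and all 11 lay in Slx1b.

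LMRs at binding sites of CTCF, an insulator and loop-anchoring protein, and of REST, a repressor of neuronal genes, were low in both lines. The 23 CpGs of CTCF LMRs had a mean of 12.4% ± 0.660 in TTKO and 4.00% ± 0.263 in WT, with 6 (26.1%) called higher in TTKO and none called lower. The 98 CpGs of REST LMRs had 8.04% ± 0.195 and 4.68% ± 0.403, with 19 (19.4%) higher and 6 lower. Both shares of higher CpGs were below the 33.4% over all CpGs tested. Their medians were near 0 (0.218 and -0.717 points), so that the class means rested on a minority of CpGs. Among regions methylated in ES cells, FMRs had 57.9% ± 2.04 in TTKO and 44.2% ± 7.33 in WT with 5 of 15 CpGs (33.3%) higher, the share over all CpGs being 33.4%. None of the 4 FMR CpGs in Arhgef15 was called with all replicates, and all 4 were higher without WT replicate 3. The methylated UMR near Tuba3a had 69.8% ± 1.43 and 54.0% ± 5.40 with 5 of 6 higher, and the methylated island in a coding exon of AU022751 had 88.9% ± 2.90 and 79.3% ± 2.22 with 6 of 12 higher. No CpG of these 3 groups was called lower in TTKO. UMRs ran the other way in their means, with 1.30% ± 0.0847 in TTKO and 2.08% ± 0.540 in WT, but only 1 of their 82 CpGs was called higher and 3 lower.

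**Figure D2:**
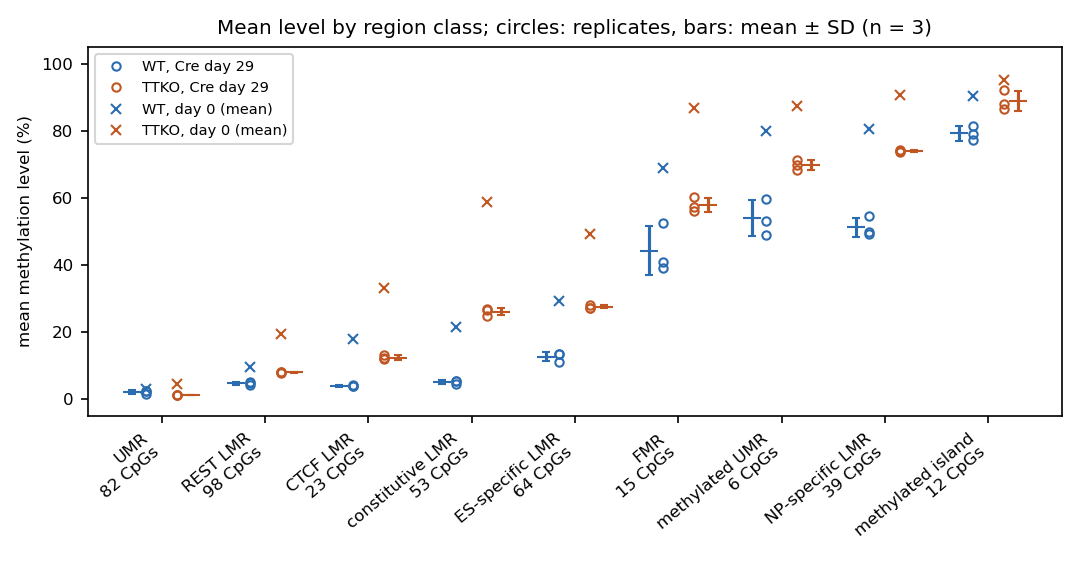
Mean methylation level in percent of each region class, with circles for the 3 replicates of WT (blue) and TTKO (orange) at Cre day 29, bars for their mean ± SD and crosses for the day 0 mean. TTKO replicates lie above WT replicates in every class but the UMRs, and the day 0 mean lies above the day 29 mean in every class and line.

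The widest difference of a whole amplicon was in a coding exon of Zbtb20, which encodes a BTB zinc finger transcription factor. Its mean level was 42.3, 33.1 and 51.1% in the WT replicates and 91.4, 91.4 and 90.9% in the TTKO replicates, a difference of 49.0 points. The WT replicates spread over 18.0 points and the TTKO replicates over 0.581 points, and the groups were far apart. All 13 CpGs shown above were higher in TTKO, from 84.2 to 96.6% there and from 32.4 to 53.1% in WT, and the log2 odds ratio of the amplicon was 3.75 ± 0.38 (SE, adjusted p = 0.000479). All 13 calls also held with any single replicate left out. This amplicon is listed as an ES-specific LMR, yet its mean was 82.3% in WT and 96.2% in TTKO at day 0.

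A pair of neighbouring constitutive LMRs in an intron of Akap6, an anchoring protein for protein kinase A, gave the largest odds ratios among the 8 amplicons with the widest differences. The first had 5.54, 5.53 and 4.18% in WT and 55.1, 62.0 and 44.3% in TTKO. The second, 34 bases away, had 2.87, 3.36 and 2.50% in WT and 47.7, 41.8 and 31.0% in TTKO. Here the TTKO replicates were the more spread ones. The log2 odds ratios were 4.44 ± 0.43 and 4.45 ± 0.43 (SE, adjusted p = 0.000422 and 0.000426). The second CpG of the Akap6 stretch shown above, at chr12:54133829, had the widest difference of any CpG, with 2.12, 9.11 and 0.666% in WT against 81.1, 83.7 and 71.3% in TTKO. The third, 9 bases further, had 4.46, 2.59 and 1.26% against 70.3, 73.1 and 60.6%. Differences at these CpGs were 74.8 and 65.3 points (adjusted p = 0.00152 and 0.000915).

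Amplicons that keep higher methylation in both lines made up most of the remaining widest differences. At the NP-specific LMR nearest Irx4, an Iroquois homeobox gene, the level was 56.0, 56.2 and 53.1% in WT and 87.7, 86.4 and 85.6% in TTKO, and 9 of 10 CpGs were higher in TTKO. The NP-specific LMR nearest Gm10295 had 32.0, 48.6 and 34.4% in WT and 73.1, 75.3 and 79.5% in TTKO. WT replicate 2 stood above the other two there, and without it the median log2 odds ratio of the 8 CpGs was 3.44 in place of 2.88, with 7 higher calls in either case. A constitutive LMR whose nearest gene is Prl5a1, a placental prolactin family member, had 41.4, 35.9 and 37.7% against 76.0, 76.9 and 73.4%. An FMR in an intron of Atp2b2, a plasma membrane calcium pump gene, had 16.8, 20.7 and 13.3% against 46.3, 47.2 and 42.6%. In each of these the lowest TTKO replicate lay above the highest WT replicate.

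The last of the 8 was a constitutive LMR nearest 4931440P22Rik, with 4.95, 8.61 and 3.27% in WT and 34.2, 30.4 and 30.3% in TTKO. The adjusted p of the 8 amplicons lay between 5.36e-05 (Irx4) and 0.00123 (Gm10295).

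**Figure D3:**
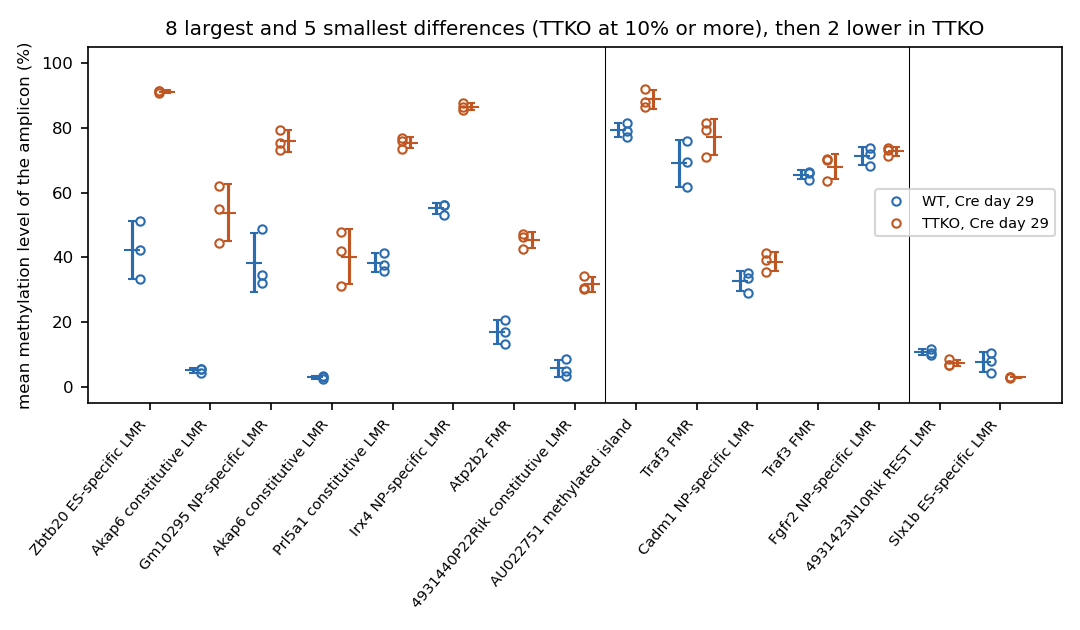
Mean methylation level in percent of the 8 amplicons with the largest and the 5 with the smallest differences among those at 10% or more in TTKO, followed by 2 amplicons lower in TTKO, with circles for replicates at Cre day 29 and bars for mean ± SD (n = 3). Labels give the gene the amplicon lies in or nearest to and its class. TTKO replicates lie above all WT replicates in the left group, and the lines overlap in 3 of the 5 in the middle group, the exceptions being the AU022751 island and the LMR nearest Cadm1.

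Differences were often limited to some CpGs of an amplicon. In the constitutive LMR that lies upstream of Col1a1, a type I collagen gene (63190 bases from the start of the gene at its first CpG), 8 of 14 CpGs were higher in TTKO. The first CpG of the stretch shown, chr11:94734348, had 3.59, 0.814 and 2.33% in WT and 63.5, 61.0 and 70.7% in TTKO. The next, chr11:94734361, had 2.64, 0.217 and 3.87% against 62.8, 58.4 and 62.1%. By the tenth CpG, 78 bases from the first, the means were 4.84% ± 4.06 in WT and 3.22% ± 1.62 in TTKO. That CpG had stood at 56.5% in TTKO at day 0. All 14 CpGs of the amplicon were under 5% in WT at day 29, so the gradient along it was seen in TTKO.

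Near Prl5a1, in contrast, the gradient lay in WT. The 3 CpGs had 4.62% ± 1.09, 32.9% ± 4.77 and 77.5% ± 3.67 in WT and 69.4% ± 4.48, 66.9% ± 2.94 and 90.2% ± 2.48 in TTKO, over 81 bases. The difference fell from 64.7 points at the first (adjusted p = 0.00025) to 12.7 points at the third (adjusted p = 0.0338). In the NP-specific LMR nearest Gm10295 the difference ranged from 60.4 points at chr7:78616679 (15.7, 40.2 and 13.4% in WT, 86.0, 82.7 and 81.7% in TTKO) to 4.37 points at chr7:78616841. At chr7:78616660, beside the first of these, WT had 12.5, 33.5 and 15.4% and TTKO 75.7, 79.99 and 83.2%. The 4931440P22Rik amplicon ran from 58.1 points at chr3:65259461 (7.98, 12.6 and 7.56% in WT, 71.0, 66.1 and 65.3% in TTKO) to -0.837 points 65 bases on. At chr10:3270090, in the CTCF LMR nearest Ipcef1, WT had 3.36, 8.72 and 8.34% and TTKO 71.6, 66.0 and 65.7%, while the CpG 22 bases before it was at 4.05% ± 1.12 and 2.21% ± 0.401.

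**Figure D4:**
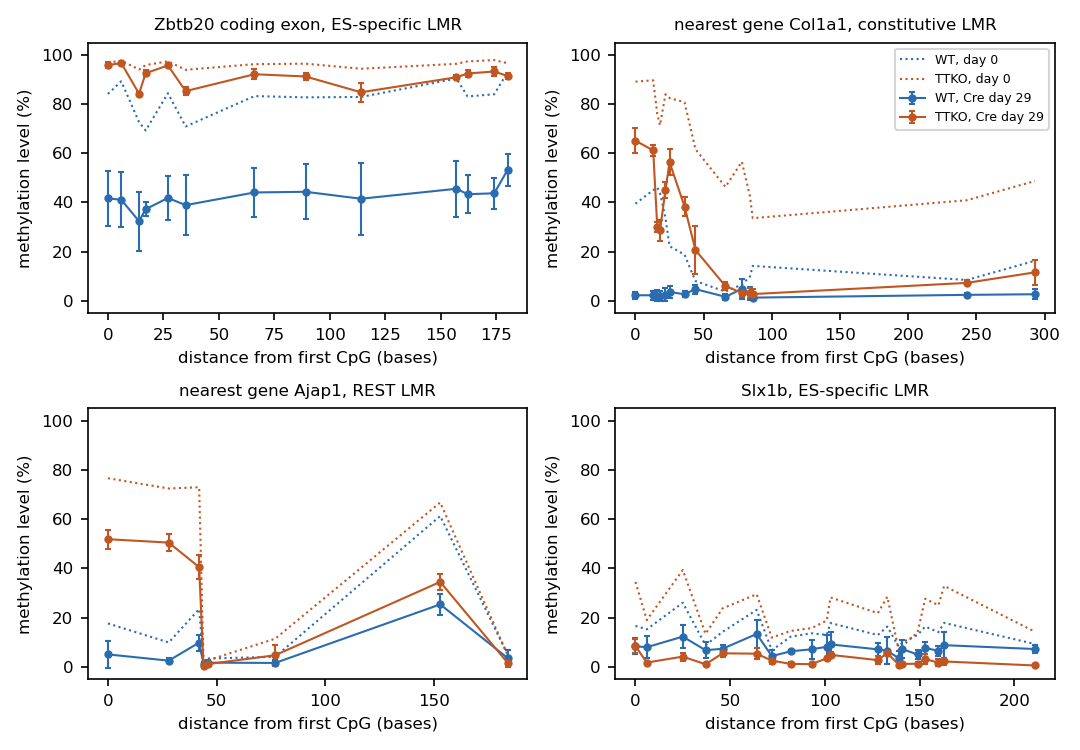
Methylation level in percent along 4 amplicons, against distance in bases from the first CpG, with points and SD bars for the 3 replicates of each line at Cre day 29 and dotted lines for the day 0 means. The Zbtb20 exon shows a level offset over all 13 CpGs, the Col1a1 and Ajap1 amplicons their widest differences in the left part (Ajap1 also 34.5% against 25.4% at a CpG further right that did not pass the test), and Slx1b low levels in both lines with TTKO below WT at most CpGs.

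REST LMRs held the second widest difference in favour of TTKO and the widest in favour of WT. In the REST region nearest 4930588N13Rik, the last CpG shown (chr5:150291266) had 5.42, 7.13 and 2.26% in WT and 77.5, 73.0 and 76.8% in TTKO, a difference of 70.8 points (adjusted p = 0.000172). The other 5 CpGs of that region were at 31.0% or less in TTKO. Most REST LMRs were low in both lines, and 12 of 18 had a mean under 5% in each.

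The letters CACC, any 2 bases, then GGACAG, part of the REST recognition sequence, were searched on both strands of all 88 regions of the deposited list. They were found in 15 of 28 REST regions (53.6%) and in 0 of the other 60. Of the measured CpGs in REST amplicons with a match, 26 lay within 50 bases of the centre of a match. Their median level was 1.18% in TTKO and 2.34% in WT, and 4 were higher and 3 lower in TTKO, beside 33.4% higher and 5.36% lower over all CpGs and 19.4% higher over the REST LMRs. Of the 7 CpGs at 50 to 100 bases 2 were called higher in TTKO, of the 7 beyond that 1 was called higher, and none of either was called lower. The region nearest Ajap1, which codes for an adherens junction-associated protein, showed how abrupt the change could be. Its first 3 CpGs had 51.9% ± 3.91, 50.5% ± 3.36 and 40.5% ± 4.84 in TTKO against 5.03% ± 5.63, 2.50% ± 0.896 and 9.84% ± 3.25 in WT. The next CpG toward the motif, 2 bases on, had 0.412% ± 0.282 in TTKO and 1.09% ± 0.790 in WT. It had also been low at day 0, at 2.49% in TTKO and 2.47% in WT. A match describes letters in the reference only, and binding was not measured in these samples.

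Some methylated regions differed little between the lines. The 5 amplicons with the smallest differences among those at 10% or more in TTKO included 2 FMRs in introns of Traf3, a signalling adaptor of TNF receptor family members. The Traf3 amplicon with the higher coverage had 63.8, 66.3 and 66.2% in WT and 70.5, 63.5 and 69.95% in TTKO, with a log2 odds ratio of 0.19 ± 0.12 (SE, adjusted p = 0.234). The other had 69.3, 76.0 and 61.6% against 81.4, 79.2 and 70.9% (0.62 ± 0.44, adjusted p = 0.282). Its mean joined a CpG that was higher in TTKO by 21.5 points (chr12:112491363, adjusted p = 0.0352) and one with a difference of -5.10 points (chr12:112491415, adjusted p = 0.566). An NP-specific LMR that GENCODE M1 places in an intron of the growth factor receptor gene Fgfr2, whose model spans several megabases in that release, had 68.1, 72.0 and 73.7% in WT and 73.3, 73.9 and 71.2% in TTKO. Its log2 odds ratio was 0.10 ± 0.13 (adjusted p = 0.556). Levels overlapped between the lines in these 3.

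At the NP-specific LMR nearest Cadm1, a cell adhesion gene, the groups were adjacent, with 35.0, 33.5 and 29.0% in WT and 35.3, 39.3 and 41.2% in TTKO (0.37 ± 0.33, adjusted p = 0.396). Coverage was lowest there, between 147 and 425 reads. The AU022751 island was the exception in passing the test, with 79.2, 81.6 and 77.2% against 86.6, 92.1 and 87.9% (1.09 ± 0.23, adjusted p = 0.00983). Its CpG at chrX:5659239 had the highest mean of all CpGs tested in WT, with 88.1, 94.3 and 91.5% in WT and 96.7, 95.4 and 92.6% in TTKO (adjusted p = 0.241). At chrX:5659198 the values were 64.3, 78.7 and 70.3% and 67.8, 83.5 and 71.3%. In Traf3, chr12:112492702 had 85.2, 89.3 and 88.6% in WT and 87.9, 85.5 and 86.4% in TTKO, a difference of -1.12 points. In the Fgfr2 model, chr7:138970174 had 79.2, 87.4 and 87.8% against 83.8, 81.9 and 82.0%, and chr7:138970121 had 82.9, 80.9 and 87.6% against 93.0, 95.4 and 93.0% (adjusted p = 0.02), a call that was lost without WT replicate 2 or any 1 TTKO replicate. A further CpG, chr7:78616841 near Gm10295, had 80.7, 83.0 and 87.1% against 85.8, 85.9 and 92.1%.

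At an FMR in an intron of Arhgef15, a single WT replicate decided the outcome. The amplicon had 15.4, 11.9 and 70.5% in the WT replicates and 50.6, 49.1 and 45.3% in the TTKO replicates, so that WT replicate 3 lay above all TTKO replicates and the other WT replicates below them. None of its 4 CpGs was called with all replicates, 2 were higher in TTKO when the dispersion was estimated from all 78 amplicon samples, and all 4 were higher without WT replicate 3. At chr11:68769141, which had the smallest difference of any CpG at 20% or more in TTKO (5.91, 4.14 and 59.5% in WT, 27.5, 17.4 and 24.0% in TTKO), the log2 odds ratio moved from -0.17 to 2.43 (adjusted p = 0.00182) when that replicate was left out. Over all CpGs the mean of this WT replicate was 14.8%, beside 14.5 and 14.7% in the other two.

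CpGs that were lower in TTKO were few and mostly of low level. In 17 of the 21 the WT mean was under 10%, and none of these differed by more than 6.81 points. They lay in ES-specific LMRs (11), REST LMRs (6), UMRs (3) and an NP-specific LMR (1). The count was 6 without TTKO replicate 1 or 3, 10 without TTKO replicate 2 and 16 to 27 without a WT replicate. Among amplicons, the 6 lower calls became 2 without TTKO replicate 1 or 3, 3 without TTKO replicate 2 and 10 without WT replicate 2. The widest was chr2:23146938, the last CpG of the REST region nearest 4931423N10Rik shown above, with 79.3, 69.9 and 73.9% in WT and 52.1, 38.7 and 44.6% in TTKO. The groups did not overlap, and the difference was -29.2 points with a log2 odds ratio of -1.82 ± 0.28 (SE, adjusted p = 0.00239). This CpG was already lower in TTKO at day 0 (67.8% against 77.2%) and in mock-treated cells (59.7% against 80.6%). It was 1 of 5 lower CpGs with a lower mean in TTKO at day 0, and the other 16 had been higher in TTKO then. In mock-treated cells of day 29, however, 15 of the 21 lower CpGs had a lower mean in TTKO. The only other one that differed by at least 10 points was chr7:138970031 in the Fgfr2 model, with 50.6, 58.2 and 55.7% in WT and 38.9, 41.5 and 40.3% in TTKO (adjusted p = 0.0174).

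The amplicon in Slx1b, which encodes a subunit of a DNA structure-specific endonuclease, held 11 of the 21. Its mean was 10.4, 7.99 and 4.21% in the WT replicates and 2.70, 2.98 and 3.05% in the TTKO replicates, and WT replicate 1 was the highest. In 19 of its 20 CpGs the TTKO mean was below the WT mean. At chr7:133836001 WT had 16.9, 12.2 and 7.74% and TTKO 2.46, 5.77 and 4.21% (adjusted p = 0.0201), and at chr7:133836040 the values were 14.6, 18.4 and 7.005% and 3.05, 5.71 and 7.23% (adjusted p = 0.0442), so that the groups overlapped at the latter. The last named CpG, chr17:22367795 in the REST LMR nearest Zfp947, had 9.82, 8.67 and 8.37% in WT and 2.12, 2.15 and 2.16% in TTKO (adjusted p = 0.0301). The calls at chr7:133836040, chr17:22367795 and chr7:138970031 were lost when any 1 TTKO replicate was left out, the first also without WT replicate 1 or 2, the second without WT replicate 1 and the third without WT replicate 2, and that at chr7:133836001 without TTKO replicate 1 or 3 or WT replicate 1. The Slx1b calls numbered 4 without TTKO replicate 1 or 3, 14 without WT replicate 3 and 0 when the dispersion was estimated from all 78 amplicon samples.

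CpGs that had been low at day 0 leaned the same way. Of the 130 CpGs under 10% in both lines at day 0, a choice that uses no Cre sample, 111 had a lower mean in TTKO at Cre day 29 and 19 a higher one, with a median difference of -0.929 points, and 0 were called higher and 9 lower. Over all CpGs 5.36% were lower, close to the share here, and 33.4% were higher. The calls were thus one-sided like the means, although lower calls were about as frequent as elsewhere. In UMRs the sample means were 2.41, 1.46 and 2.38% in WT and 1.36, 1.34 and 1.20% in TTKO at Cre day 29, but 2.95% ± 0.216 in WT and 4.61% ± 0.201 in TTKO at day 0. The part of this shift in the 21 lower calls was not tested.

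The lines already differed before Cre. Over the same 392 CpGs the mean at day 0 was 26.4% ± 0.405 in WT and 40.3% ± 0.517 in TTKO, a difference of 13.9 points, and in mock-treated cells at day 29 it was 28.2% ± 0.568 and 39.0% ± 0.737 (384 CpGs). At day 0, 240 of 405 CpGs (59.3%) were higher in TTKO and 6 (1.48%) lower, and in the mock samples 162 of 384 (42.2%) and 20 (5.21%). Of the 10 CpGs with the widest differences at day 29, 8 had differed by 33.7 to 83.5 points at day 0 and the other two by 17.8 and 19.6 points. At chr12:54133829 in Akap6 TTKO had 91.0% and WT 7.57% at day 0, and at the REST CpG chr5:150291266 TTKO had 92.5% and WT 16.8%. At chr7:78616679 the gap was narrow at day 0, with 96.6% in TTKO and 77.0% in WT, and wide at day 29, with 83.5 and 23.1%. The Zbtb20 amplicon went the same way, from 96.2 and 82.3% at day 0 to 91.2 and 42.2% at day 29.

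CpGs were split by the level in TTKO at day 0, from other samples of a line that is itself compared. The share higher in TTKO at day 29 was above that over all CpGs from a day 0 level of 50% upward. No CpG rose in TTKO after Cre by the test, so CpGs low at day 0 had little room to be higher. Among the 133 CpGs under 10% at day 0, 0 were higher in TTKO at day 29 and 9 (6.77%) lower, beside 5.36% lower over all CpGs. Among the 69 CpGs at 10 to 30%, 4 were higher and 8 (11.6%) lower, with a median difference of -0.993 points. Among the 43 CpGs at 30 to 50%, 13 (30.2%) were higher and 2 (4.65%) lower, and the medians at day 29 were 5.96% in TTKO and 3.28% in WT, against a median line difference of 24.4 points at day 0. From 50 to 70% (28 CpGs) they were 23.2 and 3.55%, from 70 to 90% (50 CpGs) 49.4 and 8.32%, and at 90% or more (69 CpGs) 85.1 and 56.6%. In these 3 upper groups 22, 39 and 53 CpGs were higher in TTKO, beside 33.4% of all CpGs tested. CpGs at 90% or more had differed by a median of only 8.20 points at day 0 and differed by 27.1 points at day 29.

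**Figure D5:**
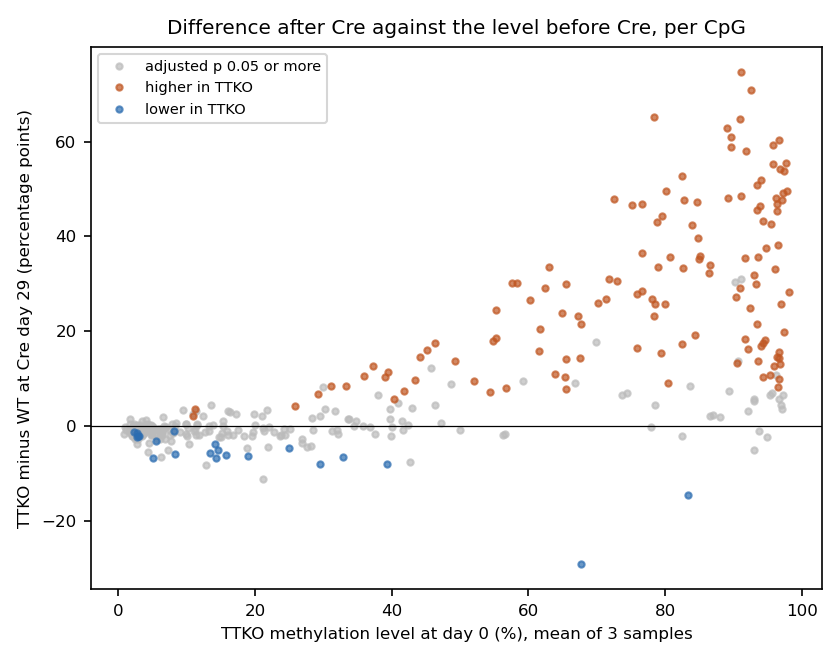
Each point is 1 CpG, with its mean level in TTKO at day 0 in percent on the horizontal axis and the TTKO minus WT difference at Cre day 29 in percentage points on the vertical axis. No CpG under 10% at day 0 is called higher in TTKO, and the 10 highest differences, up to 74.8 points, are at CpGs that started above 70%.

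Whether the lines changed by different amounts was tested as an interaction on the log odds scale. Between day 0 and Cre day 29, 220 of 392 CpGs (56.1%) fell in WT and 294 (75%) in TTKO, and 0 rose in either line by the quasi-binomial test (unadjusted p under 0.05 in either direction at 234 CpGs, 59.7%, and 305 CpGs, 77.8%). The change differed between the lines at 36 CpGs. At 5 (1.28%), in 4 amplicons, the log odds fell less in TTKO, with median levels of 93.4% at day 0 and 90.8% at day 29 in TTKO and 89.1 and 48.7% in WT. They lay near Irx4 and Col1a1 and in Zbtb20 and Aff3. At 31 (7.91%), in 15 amplicons, they fell more in TTKO, with medians of 19.0 and 1.80% in TTKO and 9.25 and 4.84% in WT. Of these, 13 were in Slx1b. Without TTKO replicate 1, 2 or 3 these counts were 1 and 10, 1 and 11, and 1 and 5, and without WT replicate 2 or 3 the smaller losses numbered 18 and 10. An example outside Slx1b is chr3:65259997 near 4931440P22Rik, which went from 47.2 to 3.23% in TTKO and from 11.8 to 2.69% in WT.

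Against the mock samples of day 29, which share the Cre samples with the test above, 213 of 384 CpGs (55.5%) were lower and 1 (0.26%) higher after Cre in WT, and 247 (64.3%) were lower in TTKO. The log odds fell less in TTKO at 12 CpGs (3.12%) and more at 11 (2.86%). The 12 had median levels of 92.0% in mock and 78.2% in Cre samples of TTKO and 79.98 and 35.1% in WT, and 4 of them were near Irx4. The 11 had 18.5 and 1.66% in TTKO and 9.91 and 5.002% in WT, and 6 of them were in Slx1b. These counts depended on single replicates. Without TTKO replicate 1 the quasi-binomial test against mock called 0 CpGs in either direction, without TTKO replicate 2 it called 3 and 1, and without TTKO replicate 3 it called 3 and 2. Without WT replicate 1 it called 7 and 2, without WT replicate 2 it called 32 and 18, and without WT replicate 3 the smaller losses numbered 19. With all replicates 93 CpGs (24.2%) had an unadjusted p under 0.05.

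As a share of the day 0 level, TTKO kept more at CpGs that had been methylated in both lines. At the 126 CpGs with at least 20% in both lines at day 0, the summed level at Cre day 29 was 59.0% ± 1.54 of that at day 0 in WT and 74.5% ± 0.605 in TTKO (SD over the 3 day 29 replicates, exact permutation p = 0.1). Over all 392 CpGs, a choice made after seeing the data, the shares were 55.5% ± 0.538 and 60.5% ± 0.499, a gap of 5.03 points in place of 15.5. Without the day 0 minimum the gap also narrowed in constitutive, ES-specific and CTCF LMRs (20.3, 12.6 and 15.1 points), and it was -42.4 points in UMRs (70.6% ± 18.3 in WT and 28.2% ± 1.84 in TTKO) and -6.52 points in REST LMRs. The class values that follow are for CpGs past the minimum. Constitutive LMRs kept 23.2% ± 2.13 in WT and 55.3% ± 1.83 in TTKO (19 CpGs), ES-specific LMRs 46.5% ± 7.37 and 78.7% ± 0.252 (22 CpGs), CTCF LMRs 21.3% ± 4.34 and 52.9% ± 5.37 (5 CpGs) and NP-specific LMRs 63.6% ± 3.56 and 81.4% ± 0.393 (39 CpGs). In FMRs the shares overlapped between the lines, at 64.0% ± 10.6 and 66.8% ± 2.36 (15 CpGs, exact permutation p = 0.7), and in REST LMRs likewise, at 54.4% ± 5.67 and 49.98% ± 2.02 (8 CpGs, exact permutation p = 0.3). The FMR overlap rested on WT replicate 3, the replicate that stood apart in Arhgef15. The WT shares were 56.6, 59.3 and 76.2% and the TTKO shares 69.4, 66.2 and 64.8%, and without WT replicate 3 the WT mean was 57.9%, 8.90 points below TTKO.

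The gap between the lines was not constant over the time course. At 296 CpGs with a level in every sample of the course, WT stood at 66.6% of TTKO at day 0, at 86.2% at day 4 and at 59.5% at day 29. WT had 27.1% ± 0.486 at day 0 and 32.3% ± 1.18 at day 4, and the replicates of these days did not overlap. TTKO had 40.7% ± 0.550 and 37.5% ± 0.892. These time points were not tested against each other. Per the study's methods, methylation rose slightly between days 4 and 8 in WT mock samples, while TTKO mock samples stayed stable. The authors saw the rise in Cre samples too and proposed a side effect of transduction independent of Cre. They adjusted for it, whereas these levels were not adjusted. By day 29, WT mock levels averaged 1.02 to 1.18 times day 0 levels across bins of day 0 level. From day 13 on, the difference was 9.90, 9.74 and 10.1 points at days 13, 17 and 29, with means of 21.8, 19.5 and 14.8% in WT and 31.7, 29.2 and 24.9% in TTKO.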

How the data were processed

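Amplicon bisulfite sequencing covered 88 listed regions in mouse embryonic stem cells. Per the study's methods, the authors converted DNA with an EpiTect kit, sequenced amplicons on a MiSeq, aligned reads with QuasR to mm9 and called levels with AmpliconBiSeq, giving no level under 100 reads. The deposited tables hold, per CpG and sample, the count of covering reads and the methylated fraction. For hybrid capture the deposited table holds pooled coverage counts and percent methylation, and its columns of rates inferred by the authors were not used.

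Tables were joined by position, and methylated reads were recovered as fraction times coverage, all whole within 0.001. Levels are printed in percent. Each CpG with a level in all 6 samples entered a logistic regression of quasi-binomial form (two-sided), adding 0.5 to methylated and unmethylated reads, with dispersions moderated by limma 3.58.1 (R 4.3.3) and not under 1, and Benjamini-Hochberg adjustment over all CpGs at 0.05. Amplicons were tested on their summed reads. Log2 odds ratios are TTKO over WT. Day 0 and mock samples entered through interaction terms. Exact permutation tests used scipy 1.17.1. The scripts were tested on simulated data.

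Named CpGs were the 10 with the largest differences in favour of TTKO past the threshold without overlap (at most 2 per amplicon), the 5 widest lower ones, and, with 1 per amplicon, the 5 smallest differences at 20% or more in TTKO and the 3 highest levels. Named amplicons were the 8 largest and 5 smallest differences at 10% or more in TTKO. CpGs of other amplicons printed in full were chosen after their values were seen. The region classes, members and rules were chosen with earlier results of these data known. Alternatives changed the coverage minimum, added count, dispersion, model, samples fitted, level filter, mock baseline, replicate block and replicates. Same-numbered replicates of the lines did not deviate together (r across CpGs 0.0136, -0.0309 and -0.0956), so the numbers were not taken as pairs.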

Additional observations from a re-analysis of the deposited data

Results flagged for a closer look

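The lines differed in how much the log odds of methylation changed, by an interaction term of the quasi-binomial model with Benjamini-Hochberg adjustment. Between day 0 and Cre day 29 the log odds fell less in TTKO at 5 CpGs and more at 31, and with 1 replicate left out these counts ranged from 1 to 18 and from 5 to 38. Between mock and Cre samples of day 29 they fell less in TTKO at 12 CpGs and more at 11, but at 0 and 0 without TTKO replicate 1 and at 32 and 18 without WT replicate 2. The Cre day 29 samples are the same in both tests.

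Among the named CpGs, 7 passed in 1 of the 2 tests and none in both. Against mock the log2 ratio of odds ratios was in favour of TTKO at chr5:150291266 (1.94, adjusted p = 0.0449), chr13:28387599 near Prl5a1 (3.27, adjusted p = 0.0119) and chr3:65259461 near 4931440P22Rik (1.72, adjusted p = 0.0449). Against day 0 the values at these CpGs were 0.09 (adjusted p = 0.933), 1.64 (adjusted p = 0.147) and 1.38 (adjusted p = 0.138). The WT reference itself differed at chr5:150291266 (16.8% at day 0, 39.0% in mock) and chr13:28387599 (38.6 and 62.5%). At chr3:65259461 it was similar (58.2 and 57.7%). TTKO stood at 92.5 and 91.6%, 90.9 and 88.6%, and 91.9 and 89.7% at these CpGs. Whether this made the tests differ was not tested. At chr11:94734361 near Col1a1 the ratio was 2.80 against day 0 (adjusted p = 0.0309) and 3.59 against mock (adjusted p = 0.0813). It was negative at chr7:138970031 in the Fgfr2 model, with -1.60 against day 0 (adjusted p = 0.0117) and -0.43 against mock (adjusted p = 0.393). In Slx1b it was -2.73 at chr7:133836001 and -2.17 at chr7:133836040 against day 0 (adjusted p = 0.00695 and 0.0444), and -1.62 and -0.99 against mock (adjusted p = 0.0694 and 0.266).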

How the results depend on the processing

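The mean difference lay between 9.55 and 10.6 points under every alternative run on it, and 107 to 142 CpGs were higher in TTKO. Of the 10 named CpGs with the widest differences, each stayed past the threshold in every alternative in which it was tested, as did chr2:23146938 on the lower side. The other 4 named lower CpGs and chr7:138970121 lost their call in 5 to 10 of 15 alternatives (highest adjusted p = 0.0845 to 0.123). Lower CpGs numbered 7 at a mean level of at least 5%, 7 with all 78 amplicon samples fitted and 2 with at least 10 points asked for, and limma on logit levels gave 12 lower amplicons. Without moderated dispersion the line by treatment interaction gave 6 smaller and 1 larger losses.

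With the replicate number as a block, 122 CpGs were higher and 19 lower, the smaller losses since day 0 numbered 9, and those against mock 7, with 4 larger ones. The mean difference was 9.75 points with the block (exact permutation p = 0.25, the smallest 3 pairs allow).

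Class medians moved with the coverage minimum of 500 or 1000 reads to 6.15 points for ES-specific LMRs and 24.4 for NP-specific LMRs under both, and to 15.9 and 17.0 for constitutive LMRs. The FMR median of 8.46 points fell to 2.14 at both minimums and was 13.7 with the mock baseline, and the CTCF median of 0.218 was 0.0154 at 1000 reads. Averaging each amplicon first gave 1.08 (CTCF), 8.53 (ES-specific), -0.238 (REST) and 19.5 points (constitutive).

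Leaving out 1 replicate in turn gave 107 to 128 higher and 6 to 27 lower CpGs, 25 to 27 higher and 2 to 10 lower amplicons, and mean differences of 9.67 to 9.87 points. Since day 0 it gave 1 to 18 smaller and 5 to 38 larger losses, and against mock 0 to 32 and 0 to 18. Class medians ranged from 0.0869 to 0.808 (CTCF), 2.56 to 5.02 (ES-specific), 5.84 to 18.0 (FMR, the highest without WT replicate 3), 18.4 to 22.9 (NP-specific), -0.812 to -0.416 (REST), -0.946 to -0.566 (UMR), 13.6 to 15.4 (constitutive), 14.7 to 18.6 (methylated UMR) and 8.13 to 10.8 points (methylated island), and the gap in retention from 14.6 to 16.2 points. That gap was 5.03 points over all CpGs, an alternative chosen after seeing the data.

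The sign of the log2 odds ratio changed at 3 CpGs with the smallest differences. At chr11:68769141 it became 0.89 with limma, 0.68 with the block, 0.064 with WT divided by the mock baseline, 2.43 without WT replicate 3 and 0.11 without TTKO replicate 2, with a range of -0.98 to 2.43 over single replicates left out. At chr12:112492702 it became 0.13 with the mock baseline, and at chrX:5659198 -0.19 without TTKO replicate 2 (range -0.19 to 0.47). The cause was not tested. Coverage was lowest near Cadm1, at 147 to 425 reads.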
